A study of Mus musculus with 8 samples.

Results

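Medium spiny neurons make up most neurons of the striatum, and 9 genes that these neurons share whatever their projection target were followed in whole striatum of WT and 16p11.2+/- mice. The genes were taken by symbol from the table of all genes, and they are 9 of the 55032 genes listed there. They are 5 signalling genes (Ppp1r1b, Adcy5, Gnal, Gng7 and Rasgrp2) and 4 transcription factor genes (Bcl11b, Foxp1, Foxp2 and Meis2). All 9 passed the filter on low counts, as did 18294 genes in all, with between 691 counts (Foxp2) and 20382 counts (Adcy5) in a mouse.

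The study compared 4 WT female mice (WT-1015, WT-1041, WT-1061 and WT-1063) with 4 female mice that carry the 16p11.2+/- deletion (DF-1018, DF-1037, DF-1059 and DF-1062, the names given to them in the labels). The deletion model lacks 1 copy of the mouse segment that matches the human 16p11.2 region, a copy number change linked to autism, and the line came from the Jackson Laboratory. All 8 mice were of the C57BL/6 strain, 60 days old and with no treatment named in the labels. RNA came from a dissected piece of frozen striatum of each mouse, which holds every cell type of the region. The deletion is present in all cells, so that no difference between the groups can be assigned to one cell type.

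In medium spiny neurons, dopamine and adenosine receptors act on cAMP through a shared set of proteins. The olfactory type G protein alpha subunit (Gnal) with the gamma subunit Gng7 couples the dopamine D1 receptor and the striatal adenosine receptor to adenylyl cyclase 5 (Adcy5), the main cyclase of these cells. cAMP activates protein kinase A, which turns the phosphoprotein DARPP-32 (Ppp1r1b) into an inhibitor of protein phosphatase 1. Rasgrp2, also named CalDAG-GEFI, activates the small GTPase Rap in response to calcium and diacylglycerol. The zinc finger factor Bcl11b (CTIP2), the forkhead factors Foxp1 and Foxp2 and the homeobox factor Meis2 take part in the development and identity of striatal neurons. None of the 4 factors is found in the striatum alone: Foxp2 is also expressed in thalamus and deep cortex, and Bcl11b and Foxp1 in cortex.

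Libraries held between 15125051 and 16523429 counts. Levels are given in FPKM (fragments per kilobase of gene, scaled to the library total), which are set per gene length and can be compared between genes. Mapk3, a gene of the deleted segment on chromosome 7, matched the genotype labels in every mouse, at 20.7 to 22.3 FPKM in 16p11.2+/- and 35.7 to 46.4 FPKM in WT (edgeR adjusted p = 0.00986), and Aldoa of the same segment was at 145 to 160.4 against 289 to 309 FPKM (edgeR adjusted p = 0.00169). Defining genes of medium spiny neurons were present in every piece, with Penk at 111 to 456 FPKM and Drd1 at 14.6 to 78.1 FPKM. The pieces were not alike, however. Mice DF-1037 and DF-1062 stood apart from the other 6 mice in medium spiny neuron genes, and marker genes of thalamus, cortex and choroid plexus differed by large factors between mice of both groups. The comparison of the genotypes is therefore given with and without mice DF-1037 and DF-1062. A lower level in such a piece of tissue can reflect fewer medium spiny neurons or less RNA of the gene per neuron, and these cannot be told apart in bulk RNA.

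None of the 9 genes lies on chromosome 7. In the GENCODE M21 annotation (mouse build GRCm38), Ppp1r1b spans chr11:98348404-98357796 on the plus strand, Adcy5 chr16:35154877-35305738 on the plus strand, Gng7 chr10:80948624-81014945 on the minus strand and Rasgrp2 chr19:6399340-6415216 on the plus strand. Bcl11b spans chr12:107910403-108003602 on the minus strand, Foxp1 chr6:98925338-99522721 on the minus strand, Foxp2 chr6:14901349-15441977 on the plus strand and Meis2 chr2:115863064-116065839 on the minus strand. All 9 are protein-coding. The counting was not stated to use strand, and 15.7% of the exon bases of Ppp1r1b overlap the gene 1700003D09Rik on the opposite strand, so that reads of that part cannot be assigned. Overlap on the opposite strand was 7.63% for Gnal (Mppe1) and 2.14% for Rasgrp2 (Gm14965). Foxp1 shared 3.16% of its exon bases with genes on its own strand (Gm20696 and Gm49348), and no exon base was shared for Adcy5, Gng7, Bcl11b, Foxp2 and Meis2.

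The sequence upstream of the genes is shown for 3 of the 9 genes, as the part of the gene where transcription starts. No pair among these 3 had the most constant ratio of the pairs of the 9 genes. RefSeq upstream windows (GRCm38.p6) of 6 of the 9 genes were used, 10 windows in all. That a gene is missing here does not mean that it has no RefSeq window. The motif shares given below therefore describe these 10 windows and not the 9 genes as a set. Each window printed is the 250 bases before a RefSeq start, 5′ to 3′ on the strand of the gene. Capitals mark GGGCGG or CCGCCC (the GC box on either strand) and TGACG or CGTCA (the core of the cAMP response element on either strand).
Adcy5, chr16:35154614-35154863, plus strand: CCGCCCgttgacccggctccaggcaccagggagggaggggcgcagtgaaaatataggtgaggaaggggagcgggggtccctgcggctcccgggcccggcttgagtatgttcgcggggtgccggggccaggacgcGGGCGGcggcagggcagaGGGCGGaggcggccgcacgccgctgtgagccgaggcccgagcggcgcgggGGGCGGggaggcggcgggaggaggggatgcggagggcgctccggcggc
Gng7, chr10:81014926-81015175, minus strand: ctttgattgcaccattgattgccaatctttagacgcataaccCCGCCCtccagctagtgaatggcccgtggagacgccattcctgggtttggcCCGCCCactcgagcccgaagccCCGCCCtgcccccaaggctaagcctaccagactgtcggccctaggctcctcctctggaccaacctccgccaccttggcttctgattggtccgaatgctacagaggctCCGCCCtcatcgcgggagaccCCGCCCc
Foxp1, chr6:99028299-99028548, minus strand, at an internal start: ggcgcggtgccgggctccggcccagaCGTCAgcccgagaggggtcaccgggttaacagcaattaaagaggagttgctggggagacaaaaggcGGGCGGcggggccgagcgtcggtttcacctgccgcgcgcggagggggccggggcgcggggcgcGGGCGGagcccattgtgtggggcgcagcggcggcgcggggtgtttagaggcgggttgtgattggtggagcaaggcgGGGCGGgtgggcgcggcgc
The windows of Adcy5 and Gng7 hold 4 and 5 GC boxes and no cAMP core, and that of Foxp1 holds 3 GC boxes and 1 cAMP core. The start of this Foxp1 window lies 494423 bases from the GENCODE gene start. The Foxp1 window nearest the gene start, 1728 bases from it, holds 1 GC box and no cAMP core. Another window of Gng7 holds 1 cAMP core and no GC box. Of the 10 windows, 6 held a GC box (32.7% of all 32851 RefSeq windows of this length), 2 held TGACG (17.8%), 2 held the MEIS motif TGACAG (15.9%), 2 held the forkhead variant TGTTTGC (4.3%) and 0 held the forkhead motif TGTTTAC (3.17%). Both strands were searched. The motif TGACG and the motif TGACAG share their first 4 letters but cannot start at the same base of a strand. The printed windows were rich in G and C (78.0% for Adcy5, 62.8% for Gng7 and 74.0% for Foxp1, where the median of all windows was 52.4%). Matches of this kind describe the letters of the windows and were not tested as binding sites.

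Of the 5 signalling genes, 4 were among the most abundant transcripts of the striatum. Ppp1r1b had the highest mean of the 9 genes (233 FPKM over 8 mice, rank 69 of the 18294 genes tested), followed by Gng7 (181 FPKM), Adcy5 (127 FPKM) and Gnal (107 FPKM, rank 224). The transcription factors were lower, with Bcl11b at 38.7, Meis2 at 27.4, Foxp1 at 22.4 and Foxp2 at 5.14 FPKM, and Rasgrp2 lay between the last 2 at 13.6 FPKM. In the WT mice, neighbours in this order overlapped in their ranges except at 2 steps, from Gnal to Bcl11b and from Rasgrp2 to Foxp2. Each gene was above the next in at least 6 of 8 mice, with Adcy5 above Gnal in 6, and the steps from Ppp1r1b to Gng7, from Bcl11b to Meis2 and from Meis2 to Foxp1 holding in 7. The place of Gnal rests on the length used for its FPKM, 5761 bases, whereas GENCODE M21 gives 11172 exon bases.

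Between the genotypes none of the 9 genes passed the test. Their means were lower in 16p11.2+/-, with 2 of the 4 deletion mice below every WT mouse and the other 2 within or above the WT range. By the quasi-likelihood test of edgeR, 0 of 9 genes had an adjusted p under 0.05 (0.109% of all tested genes did) and 0 of 9 had an unadjusted p under 0.05 (4.32% of all tested genes). The edgeR log2 fold change of 16p11.2+/- over WT was below 0 for 9 of 9 genes, from -0.57 to -0.21 with a median of -0.38, where 51.8% of all tested genes were below 0 with a median of -0.01. In FPKM the groups overlapped for 9 of 9 genes, where 2.83% of all tested genes did not overlap. Mice DF-1037 and DF-1062 were below every other mouse of either genotype for 9 of 9 genes, an arrangement found for 9.46% of all tested genes. These 2 mice were singled out after their values were seen, so that no test of them was made.

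**Figure D1:**
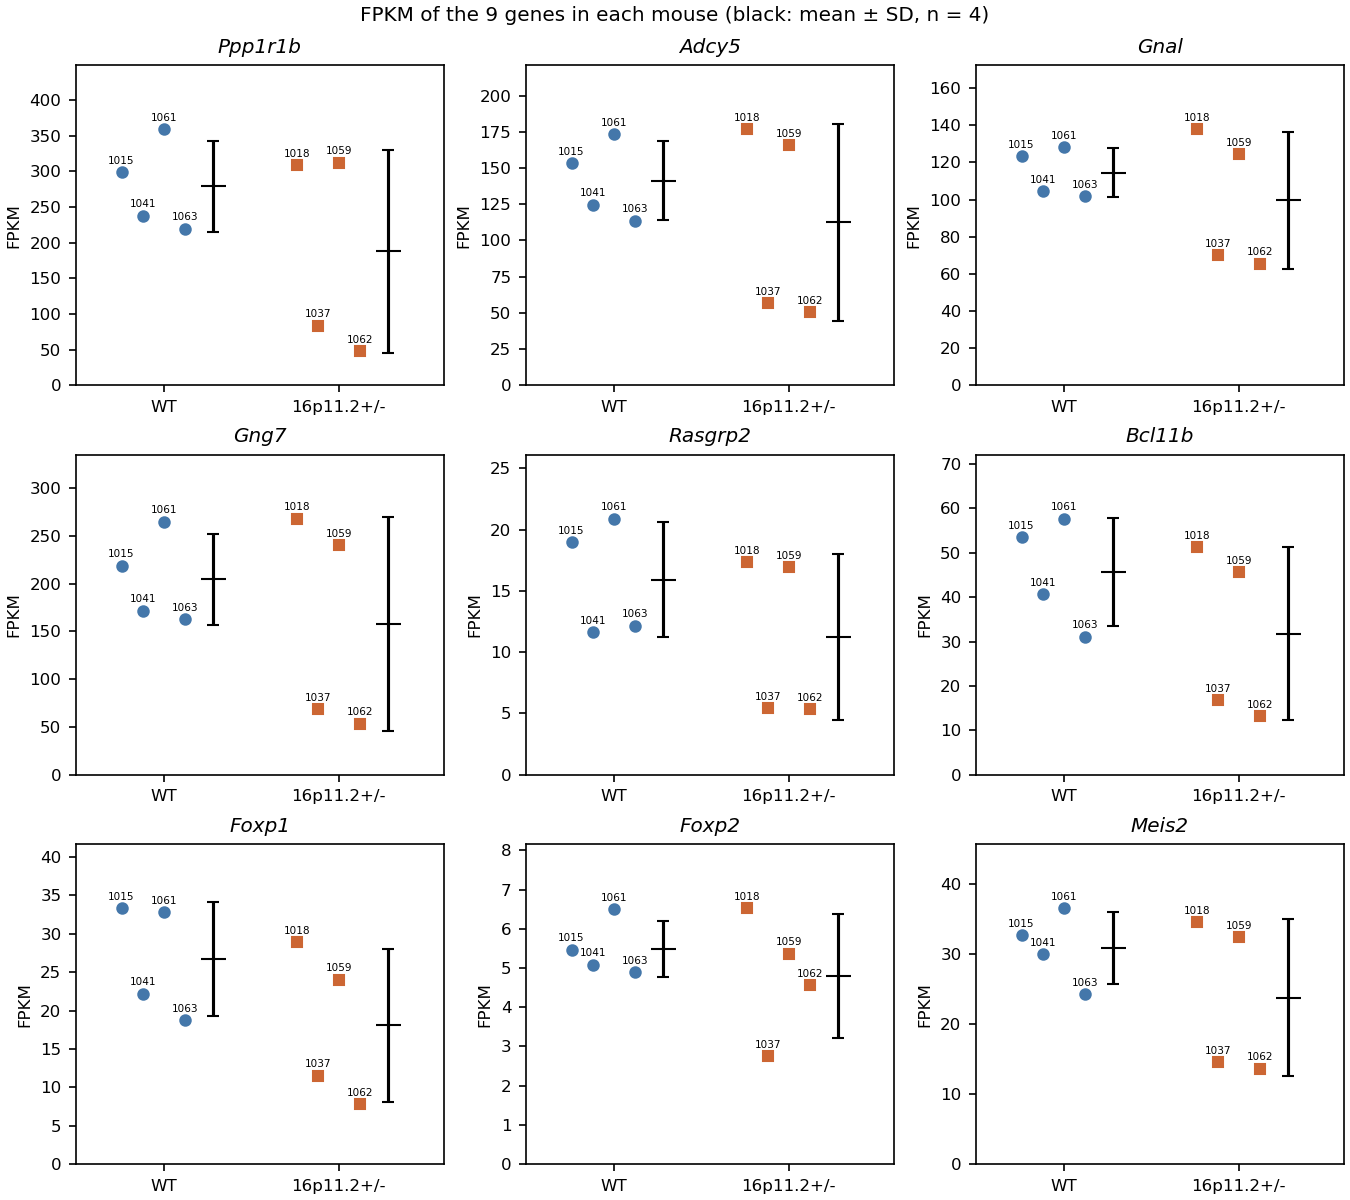
FPKM (linear axis) of each of the 9 genes in every mouse, with the digits of its name at each point, circles for WT and squares for 16p11.2+/-, and the mean ± SD of the 4 mice of a group in black. In each panel the squares split into DF-1018 and DF-1059, within or above the WT range, and DF-1037 and DF-1062 below all other points.

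Ppp1r1b, which encodes DARPP-32, varied most. Its FPKM in the 4 WT mice was 298 (WT-1015), 238 (WT-1041), 359 (WT-1061) and 219.6 (WT-1063), and in the 4 16p11.2+/- mice it was 309 (DF-1018), 83.5 (DF-1037), 312 (DF-1059) and 47.5 (DF-1062). Mice DF-1018 and DF-1059 lay inside the WT range, whereas DF-1037 and DF-1062 were at 29.9% and 17.04% of the WT mean. The group means were 279 ± 63.2 FPKM in WT and 188 ± 142 FPKM in 16p11.2+/- (SD, n = 4 each), an edgeR log2 fold change of -0.57 with an SE of 0.57 (adjusted p = 0.866), and the two-sided exact permutation test of FPKM over the 70 assignments of the mice gave p = 0.343. The highest and the lowest mouse were 7.56-fold apart, more than for any other of the 9 genes.

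Adcy5, the cyclase, followed the same split with a smaller range. The WT mice were at 153 (WT-1015), 125 (WT-1041), 173 (WT-1061) and 114 (WT-1063) FPKM, and the 16p11.2+/- mice at 177 (DF-1018), 56.5 (DF-1037), 166 (DF-1059) and 50.6 (DF-1062) FPKM. Mouse DF-1018 was above every WT mouse, and mice DF-1037 and DF-1062 were at 40.0% and 35.8% of the WT mean. The means of 141 ± 27.1 and 112 ± 68.2 FPKM (SD, n = 4 each) gave an edgeR log2 fold change of -0.34 with an SE of 0.43 (adjusted p = 0.884, exact permutation p = 0.457).

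Both G protein subunits had 1 deletion mouse above the WT range and 2 below it. Gnal, the alpha subunit (chr18:67088216-67226792, plus strand), was at 123 (WT-1015), 104 (WT-1041), 128 (WT-1061) and 102 (WT-1063) FPKM in WT and at 138 (DF-1018), 70.2 (DF-1037), 124 (DF-1059) and 65.5 (DF-1062) FPKM in 16p11.2+/-. Gng7, the gamma subunit, was at 219 (WT-1015), 172 (WT-1041), 265 (WT-1061) and 163 (WT-1063) FPKM in WT and at 268 (DF-1018), 68.3 (DF-1037), 240.2 (DF-1059) and 53.6 (DF-1062) FPKM in 16p11.2+/-. The partners differed in how low they were in mice DF-1037 and DF-1062, with Gnal at 61.4% and 57.3% of the WT mean and Gng7 at 33.4% and 26.2%. Neither passed the test, with edgeR log2 fold changes of -0.21 for Gnal (SE 0.26, adjusted p = 0.880, exact permutation p = 0.457) and -0.38 for Gng7 (SE 0.52, adjusted p = 0.888, exact permutation p = 0.486).

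Rasgrp2, the Rap activator, was the least abundant of the signalling genes. It was at 19.0 (WT-1015), 11.6 (WT-1041), 20.9 (WT-1061) and 12.2 (WT-1063) FPKM in WT and at 17.3 (DF-1018), 5.44 (DF-1037), 16.9 (DF-1059) and 5.34 (DF-1062) FPKM in 16p11.2+/-. The WT mice themselves fell into a higher pair and a lower pair, and the low deletion mice were at 34.2% and 33.6% of the WT mean. The edgeR log2 fold change was -0.51 with an SE of 0.45 (adjusted p = 0.859, exact permutation p = 0.286).

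Among the transcription factors, Bcl11b (36.8% and 28.8% of the WT mean) and Foxp1 (43.1% and 29.2%) were the farthest below WT in mice DF-1037 and DF-1062. Bcl11b was at 53.5 (WT-1015), 40.7 (WT-1041), 57.7 (WT-1061) and 31.1 (WT-1063) FPKM in WT and at 51.3 (DF-1018), 16.8 (DF-1037), 45.6 (DF-1059) and 13.2 (DF-1062) FPKM in 16p11.2+/-. Foxp1 was at 33.3 (WT-1015), 22.2 (WT-1041), 32.8 (WT-1061) and 18.7 (WT-1063) FPKM in WT and at 28.9 (DF-1018), 11.5 (DF-1037), 24.0 (DF-1059) and 7.81 (DF-1062) FPKM in 16p11.2+/-. No deletion mouse exceeded the WT range for either gene. The edgeR log2 fold changes were -0.53 for Bcl11b (SE 0.45, adjusted p = 0.859, exact permutation p = 0.257) and -0.57 for Foxp1 (SE 0.42, adjusted p = 0.859, exact permutation p = 0.229), and the p of Foxp1 was the lowest of the 9 genes.

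Meis2 (47.2% and 44.1% of the WT mean) and Foxp2 were closer to WT in mice DF-1037 and DF-1062. Meis2 was at 32.7 (WT-1015), 30.0 (WT-1041), 36.6 (WT-1061) and 24.3 (WT-1063) FPKM in WT and at 34.6 (DF-1018), 14.6 (DF-1037), 32.5 (DF-1059) and 13.6 (DF-1062) FPKM in 16p11.2+/-. Foxp2 was at 5.46 (WT-1015), 5.09 (WT-1041), 6.49 (WT-1061) and 4.90 (WT-1063) FPKM in WT and at 6.52 (DF-1018), 2.75 (DF-1037), 5.36 (DF-1059) and 4.56 (DF-1062) FPKM in 16p11.2+/-. Foxp2 was the exception in mouse DF-1062, which was only just below the lowest WT mouse and at 83.1% of the WT mean, while mouse DF-1037 was at 50.2%. The edgeR log2 fold changes were -0.38 for Meis2 (SE 0.33, adjusted p = 0.859, exact permutation p = 0.314) and -0.21 for Foxp2 (SE 0.24, adjusted p = 0.874, exact permutation p = 0.457).

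**Figure D2:**
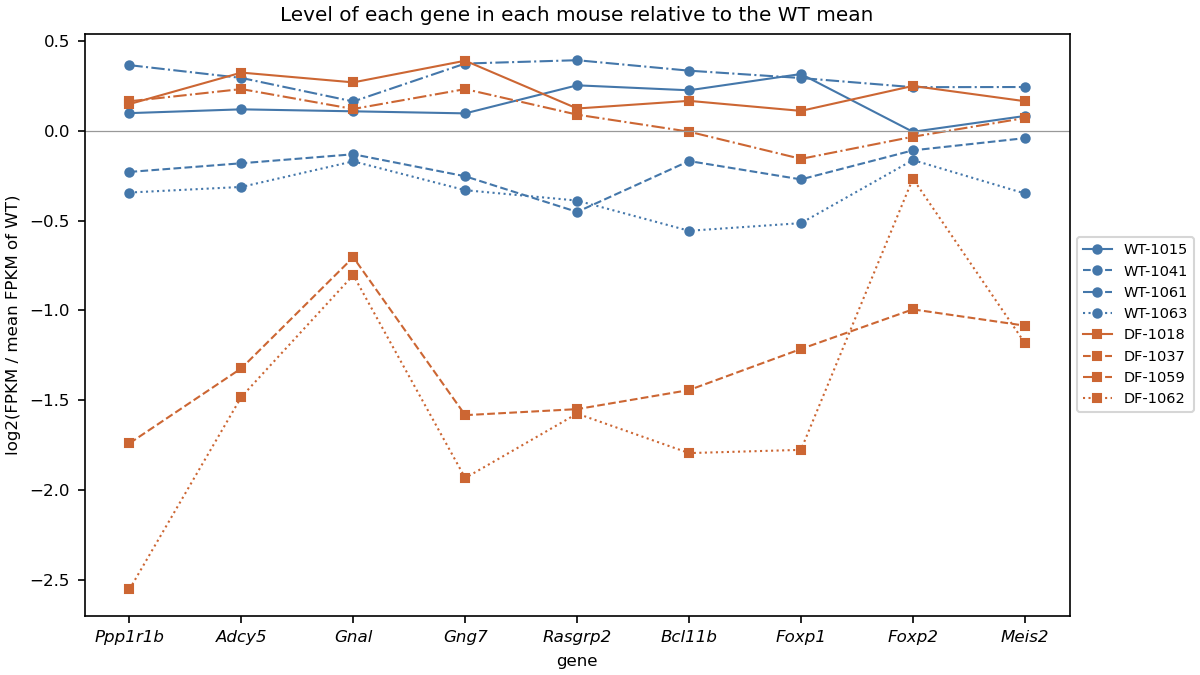
Level of each gene in each mouse as log2 of FPKM over the mean FPKM of WT, with 1 line per mouse, circles for WT and squares for 16p11.2+/-. The lines of mice DF-1037 and DF-1062 run below all others, lowest at Ppp1r1b (-1.74 and -2.55), and that of mouse DF-1062 comes back towards the others at Foxp2 (-0.27).

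Seen by mouse, the 9 genes moved together. Mouse DF-1018 was at 108% to 131% of the WT mean over the 9 genes (median 112%) and mouse DF-1059 at 89.7% to 117% (median 106%). Mouse DF-1037 was at 29.9% to 61.4% (median 40.0%) and mouse DF-1062 at 17.04% to 83.1% (median 33.6%). The same order was present at smaller size among the WT mice, where WT-1041 and WT-1063 were the 2 lowest for 9 of 9 genes. Log2 CPM are counts scaled to the library total after correction by the TMM factor of edgeR. Their SD over the deletion mice was larger than that over the WT mice by a factor of 2.16 (Foxp1) to 4.19 (Ppp1r1b). For Ppp1r1b it was 1.41 against 0.34, where the median of 11077 genes of at least 3 log2 CPM was 0.18 in 16p11.2+/- and 0.14 in WT. A spread over the deletion mice as large as that of Ppp1r1b was found for 42 of these genes (0.379%), and one as large as that of Foxp2 for 902 (8.14%).

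Pairs of members kept more or less fixed proportions over the 8 mice. Of the 36 pairs, Bcl11b and Foxp1 had the most constant ratio, with an SD of the log2 ratio of 0.12, and Adcy5 and Rasgrp2 followed with 0.15. The least constant was Ppp1r1b with Foxp2 (0.83), followed by Ppp1r1b with Gnal (0.67). The FPKM ratio of Gnal to Ppp1r1b was 0.841 in mouse DF-1037 and 1.38 in mouse DF-1062 but 0.357 to 0.463 in the other 6 mice. The ratio of Foxp2 to Foxp1, the 2 forkhead factors, was 0.584 in mouse DF-1062 and 0.164 to 0.262 in the other 7 mice. These ratios were chosen after the values were seen, and no test between the genotypes is given for them.

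Mice DF-1037 and DF-1062 were chosen for their low levels, so that higher fold changes without them follow from the choice and are no evidence on the genotype. Without mice DF-1037 and DF-1062 the edgeR log2 fold change was above 0 for 8 of 9 genes, among them Gng7 at 0.32, Adcy5 at 0.29, Gnal at 0.20 and Ppp1r1b at 0.16, and Foxp1 was at -0.01, and the median was 0.13. No gene passed in that comparison either (edgeR adjusted p of 0.995 or more), which rests on 2 deletion mice. With the mean log2 CPM of thalamus markers as a covariate, the median was -0.06 over all 8 mice, and with limma-voom, which averages log values, it was -0.70. Leaving out 1 mouse at a time gave medians from -0.78 (without DF-1018) to -0.17 (without DF-1062), and the values without DF-1037 (-0.21) and without DF-1059 (-0.65) were also more than 1.5-fold from the median over all mice.

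**Figure D3:**
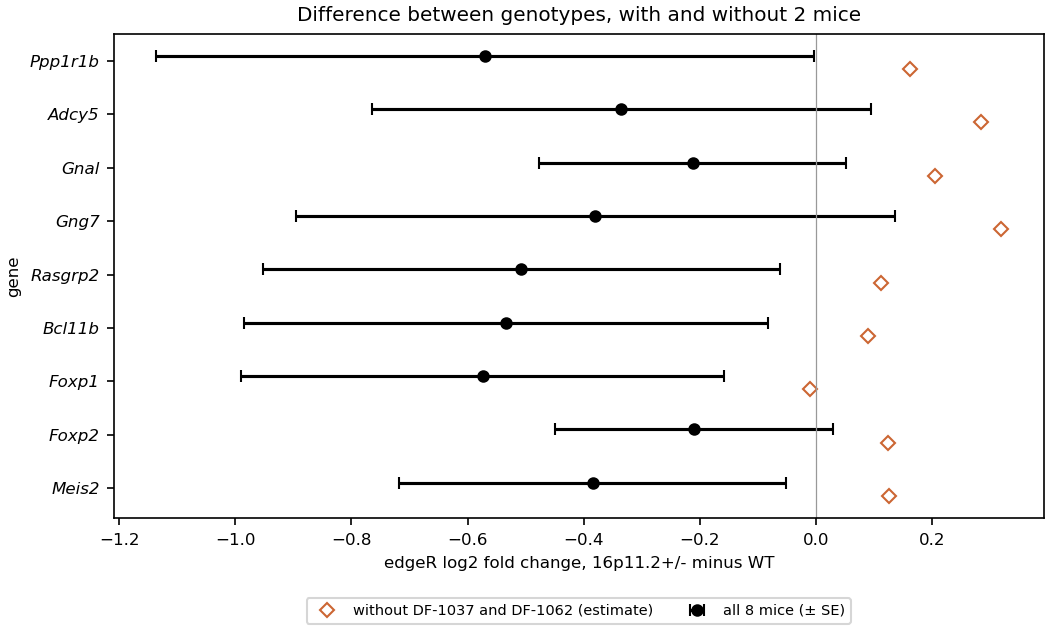
edgeR log2 fold change (16p11.2+/- minus WT) of the 9 genes, with black circles and bars for the estimate ± SE over all 8 mice and open diamonds for the estimate without mice DF-1037 and DF-1062. All circles are below 0, and all diamonds but that of Foxp1 are above 0.

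Other markers of medium spiny neurons had the same pattern. Of 11 such genes, 10 were lowest in mice DF-1037 and DF-1062 (9.46% of all tested genes), including the dopamine receptor genes Drd1 and Drd2, and 0 passed an adjusted or an unadjusted p under 0.05 by edgeR. The exception was Pdyn, the precursor of dynorphin, at 17.8 FPKM in mouse DF-1037 and 23.0 in mouse DF-1062 against 18.6 to 29.8 in the other mice. The 11 genes summed to 351 FPKM in mouse DF-1037 and 314 in mouse DF-1062, against 866 to 1443 in the other 6 mice. The list median log2 fold change was -0.50.

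Markers of other tissue moved with the members in part. The summed FPKM of 10 thalamus markers was 241.5 in mouse DF-1037 and 284 in mouse DF-1062, but it was also 259.9 in mouse WT-1063 and 137 in mouse DF-1018, against 34.0 to 68.2 in the other 4 mice. Over the list the WT mice ranged from 34.0 to 259.9 and the 16p11.2+/- mice from 57.8 to 284 FPKM, and no marker was at 0 in any mouse. Mouse WT-1063, with a thalamus sum between those of the 2 low mice, was the lowest WT mouse for 8 of 9 genes but above mice DF-1037 and DF-1062 for 9 of 9. The genes behind these sums differed. Calb2 was at 88.8 FPKM in mouse DF-1062, 23.5 in WT-1063 and 5.91 in DF-1037, and Prkcd at 26.3, 70.4 and 82.0. In all, 0 of the 10 thalamus markers were highest in both mice DF-1037 and DF-1062 (11.7% of all tested genes were). That count requires both mice to exceed WT-1063, itself high in these markers. With WT-1063 set aside, a choice made after the values were seen, some markers were highest in mice DF-1037 and DF-1062. These were Tcf7l2, Slc17a6, Lhx9, Zic1 and Ramp3, and the other markers of the list were not. The sum of 8 cortical glutamatergic neuron markers was highest in mouse DF-1037 (168 FPKM) and low in mouse DF-1062 (17.9 FPKM), with a range of 28.0 to 127 in WT and 16.0 to 168 in 16p11.2+/-. Emx1, one of them, was at 0 in mouse DF-1018. The 6 choroid plexus markers summed to 4418 FPKM in mouse WT-1063 and 477 in mouse WT-1015, against 7.3 to 126 elsewhere, and Kcnj13 of this list was at 0 in mice WT-1041 and DF-1018. Their part in the levels of the 9 genes was not tested beyond the covariate fits given here.

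**Figure D4:**
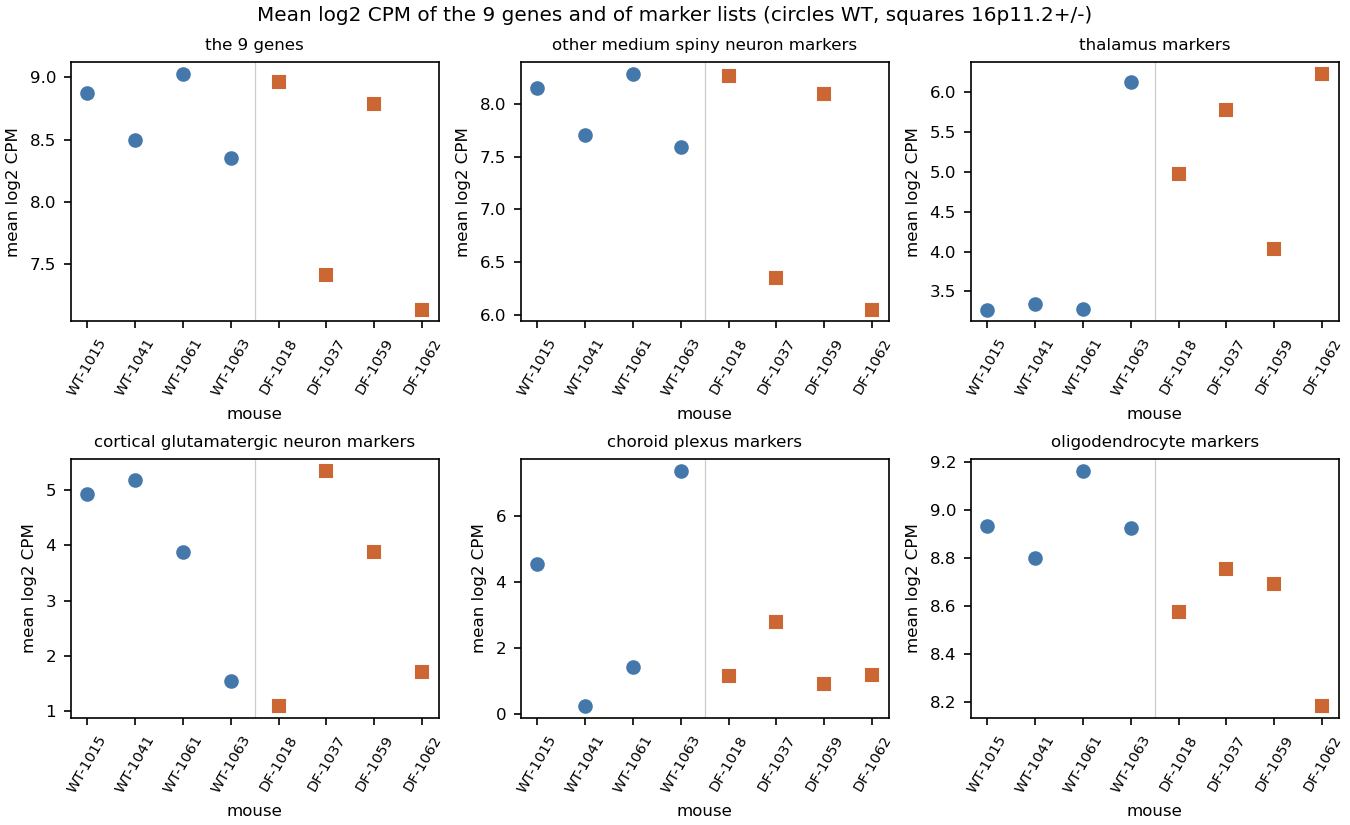
Mean log2 CPM of the 9 genes and of 5 marker lists in each mouse, with circles for WT and squares for 16p11.2+/-. The first 2 panels share their low mice (DF-1037 and DF-1062), and in the thalamus panel mouse WT-1063 of the WT group stands with these 2 mice.

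Glial and interneuron lists ranged less widely over the mice than the thalamus, cortex and choroid plexus lists. The 8 oligodendrocyte markers summed to 1922 to 2257 FPKM in WT and to 1227 to 1695 FPKM in 16p11.2+/-, and 6 of 8 were lower at an unadjusted edgeR p under 0.05 (4.32% of all tested genes in either direction) but 0 after adjustment (0.109%). The lowest sum was that of mouse DF-1062. The 5 astrocyte markers ranged from 150.5 to 172 FPKM in WT and from 134 to 176 in 16p11.2+/-, and the 5 microglia markers from 57.7 to 82.4 and from 49.4 to 78.7. The 7 striatal interneuron markers ranged from 181 to 223 in WT and from 179 to 317 in 16p11.2+/-, with the highest sum in mouse DF-1037. Pvalb (102.6 FPKM), Sst (154.9) and Npy (50.2) were highest in that mouse. Chat (0.914), Slc5a7 (2.60), Nos1 (4.78) and Th (0.717) were lowest in it. By mean log2 CPM this list was lowest in mouse DF-1037 (4.43). The 7 markers of septum and ventral forebrain ranged from 19.1 to 27.0 in WT and from 16.9 to 47.2 in 16p11.2+/-, with the highest in mouse DF-1062.

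No partner of the signalling members passed the test between the genotypes. Of 34 genes of the cAMP and protein kinase A pathway (other G protein subunits and cyclases, kinase and phosphatase subunits, DARPP-32 relatives and kinases, Rap and its regulators), 0 passed an adjusted p under 0.05 by edgeR in either direction, 3 were higher and 0 lower at an unadjusted p under 0.05 (4.32% of all tested genes had such a p in either direction), and the median log2 fold change was -0.10, against -0.01 over all tested genes. Without mice DF-1037 and DF-1062 again 0 passed. In all, 14 of the 34 were lowest in mice DF-1037 and DF-1062 (9.46% of all tested genes) and 7 were highest in them (11.7%). The most abundant was Ppp3r1, the regulatory subunit of calcineurin, which removes the activating phosphate from DARPP-32, at 273 ± 46.0 FPKM in WT and 226 ± 60.6 in 16p11.2+/- (SD, n = 4 each, edgeR adjusted p = 0.859), with 14.3% of its exon bases shared with Wdr92 on the same strand.

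Of these partners, 3 had a higher mean in the deletion mice at an unadjusted edgeR p under 0.05, without passing adjustment. Prkar2a, a regulatory subunit of protein kinase A, was at 8.43 to 10.9 FPKM in WT and at 10.2 (DF-1018), 13.7 (DF-1037), 11.6 (DF-1059) and 19.99 (DF-1062) FPKM in 16p11.2+/- (edgeR log2 fold change 0.50, SE 0.18, unadjusted p = 0.0219, adjusted p = 0.859, exact permutation p = 0.0857). Its groups overlapped, and it was highest in mice DF-1037 and DF-1062. Gnb4, a G protein beta subunit, was at 2.74 to 3.29 FPKM in WT and at 3.29 (DF-1018), 6.07 (DF-1037), 3.97 (DF-1059) and 3.87 (DF-1062) FPKM in 16p11.2+/- (log2 fold change 0.50, SE 0.18, unadjusted edgeR p = 0.0223, adjusted p = 0.859, exact permutation p = 0.0286). Its groups did not overlap, but only by a near tie of 3.286 FPKM in WT-1041 and 3.288 FPKM in DF-1018. Such a split was found for 2 of the 34 genes (2.83% of all tested genes). The other was Creb1, the cAMP-responsive transcription factor, named here after its values were seen, at 5.75 to 6.18 FPKM in WT and 5.37 to 5.72 in 16p11.2+/- (edgeR log2 fold change -0.10, SE 0.06, adjusted p = 0.859). Gnas, the general counterpart of Gnal, was at 1.34 to 1.99 FPKM in WT and at 1.55 (DF-1018), 1.99 (DF-1037), 2.66 (DF-1059) and 6.58 (DF-1062) FPKM in 16p11.2+/- (edgeR log2 fold change 0.91, SE 0.40, unadjusted p = 0.0482, adjusted p = 0.859, exact permutation p = 0.114). The value of Gnas is uncertain, since 22.0% of its exon bases overlap genes on the other strand, Nespas among them, and mouse DF-1062 alone was far above WT.

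Most other transcription factors of the striatum also had a negative fold change. Of 20 such genes 19 passed the filter, and 15 of them had a log2 fold change below 0 (51.8% of all tested genes). The median of the 19 was -0.22, against -0.01 over all tested genes. Lowest in mice DF-1037 and DF-1062 were 7 of the 19 (9.46% of all tested genes). By edgeR 0 passed an adjusted p under 0.05, and 1 of 19 was lower at an unadjusted p under 0.05, a share near the 4.32% of all tested genes, and without mice DF-1037 and DF-1062 again 0 passed the adjusted p. This gene was Nr4a1, an immediate early gene that responds to neuronal activity. It was at 19.9 (WT-1015), 14.99 (WT-1041), 16.5 (WT-1061) and 13.0 (WT-1063) FPKM in WT and at 10.5 (DF-1018), 12.6 (DF-1037), 9.43 (DF-1059) and 6.66 (DF-1062) FPKM in 16p11.2+/-. Its groups did not overlap, which was so for 1 gene of the list and for 2.83% of all tested genes, and all 4 deletion mice were below the lowest WT mouse (edgeR log2 fold change -0.73, SE 0.21, unadjusted p = 0.00811, adjusted p = 0.859, exact permutation p = 0.0286, the smallest that 4 against 4 mice can give). The most abundant of the list was Id4, an inhibitor of basic helix-loop-helix factors, at 62.2 ± 3.37 FPKM in WT and 51.1 ± 16.1 in 16p11.2+/- (SD, n = 4 each, edgeR adjusted p = 0.859).

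No paralogue of the members passed the test between the genotypes. Of 28 paralogues 25 passed the filter, and 11 had a log2 fold change below 0 (51.8% of all tested genes). The median of the 25 was 0.08, against -0.01 over all tested genes. By edgeR 0 passed an adjusted p under 0.05, and the 1 with an unadjusted p under 0.05 was Gnas. Adcy9 was lowest in mice DF-1037 and DF-1062 (1 of 25, where 9.46% of all tested genes were), and Adcy2, Adcy8, Gng2 and Gng3 were highest in these mice (4 of 25, where 11.7% of all tested genes were). Gng3, the most abundant paralogue of Gng7, was at 55.0 FPKM in mouse DF-1037 and 58.1 in mouse DF-1062 against 34.0 to 46.0 in the other mice, the opposite order to Gng7. Adcy1, the most abundant other cyclase, was at 60.5 FPKM in mouse DF-1037 and 19.5 in mouse DF-1062 with 27.1 to 40.1 in the others, and so parted the 2 low mice. Rasgrp1 (51.9 to 125 FPKM) and Ppp1r1a (14.0 to 31.7 FPKM) were lowest in mouse DF-1062 but within the range of the other mice in mouse DF-1037. Bcl11a was at 2.92 to 5.93, Foxp4 at 2.997 to 6.24 and Meis3 at 6.83 to 8.87 FPKM, with mice DF-1037 and DF-1062 among the others for Bcl11a.

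Genes other than the members whose level stayed in the most constant proportion to the members were ranked by the SD over the 8 mice of the log2 ratio to the mean log2 CPM of the 9 genes. Of 6255 other genes with a mean of at least 5 log2 CPM, the first was Ccdc88c with an SD of 0.066, followed by Strn (striatin, a calmodulin-binding scaffold protein named after the striatum) with 0.068, Smpd3 with 0.089, Kcnj2, an inwardly rectifying potassium channel, with 0.092 and Zswim6 with 0.099. The median of these genes was 0.727. Among the members Adcy5 was the closest to their mean (0.065), and Foxp2 (0.443) and Ppp1r1b (0.392) were the farthest. A correlation over the mice was not given, because the largest gap between neighbouring mice in the mean of the members was 52.5% of its range. The SD of the log2 ratio is open to the same gap, so that the ranking can rest largely on mice DF-1037 and DF-1062.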

How the data were processed

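Striatum RNA of 4 WT and 4 16p11.2+/- female mice, 1 library per mouse, was sequenced by the study as paired ends on an Illumina HiSeq. Per the study's methods, the authors filtered reads for quality and adapters, mapped them with Hisat2 and counted them per gene with Htseq-count. The submitters' processing notes name instead Bowtie 0.12.2 and the builds mm8 and mm9. The annotation and the use of strand are not given in the sources used here. The deposited raw counts and the FPKM made from them by the authors (count over gene length and library total) were used. The gene length implied by the FPKM matched GENCODE M21 exon lengths within 0.5% for 96.0% of 17562 genes compared. The deposited table of the authors' comparison (fold changes and p-values) and a summary of FPKM classes were not used. Rows with no gene name (586 rows, 0.509% of counts) were kept, and those past the filter on low counts were tested with the other genes.

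Counts were tested with edgeR 4.0.16 (R 4.3.3): TMM factors, filterByExpr by genotype (minimum count 10), quasi-likelihood fit with genotype as the only term, and Benjamini-Hochberg adjustment over all 18294 genes tested. Single genes were also compared in FPKM by a two-sided exact permutation test (70 assignments, smallest p 0.0286, Python 3.11.15). Alternatives were RLE factors, library totals, DESeq2 1.42.0, limma 3.58.1 (voom on counts, trend on log2(FPKM + 1) and log2(FPKM + 0.1)), other filters, marker scores as covariates and mice left out. The fits were run on simulated counts with the same dispersion for every gene and no split within a group. Such counts are unlike those of the deletion mice, and they say nothing about the fits in that case. Depth was 15125051 to 16523429 counts per mouse, and mice of a group differed by more than counting error (chi-square per degree of freedom 8.07 to 56.0), so that n, not depth, limits the precision.

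The 9 genes and all lists were chosen with earlier results of these data known. Named were all 9 members, partners with an unadjusted p under 0.05, the most abundant gene of each list and paralogue family, and the 5 genes most like the members. Likeness was to be ranked by Pearson r unless the mice were too unevenly spread. They were, and the SD of the log2 ratio replaced it after the data were seen, and the fits without mice DF-1037 and DF-1062, with or without mouse WT-1063, were added then too. The promoter motifs were chosen with the sequences in view.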

Additional observations from a re-analysis of the deposited data

Results flagged for a closer look

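In 3 of 44 groups of 4 mice examined, 1 mouse lay so far from the other 3 that its gap exceeded Dixon's 95% critical value, where chance gives about 1 in 20. None of them was a value of one of the 9 genes. Mouse WT-1063 had thalamus markers at 6.13 (mean log2 CPM), where the other WT mice lay between 3.27 and 3.34 (gap over range 0.976), and it was above mice DF-1037 and DF-1062 for 9 of the 9 genes. Mouse DF-1037 had a mean log2 CPM of choroid plexus markers of 2.80 against 0.91 to 1.19 in the other deletion mice (0.854). Mouse DF-1018, the deletion mouse with the highest level of 8 of the 9 genes, had a mean log2 CPM of astrocyte markers of 7.15 against 7.45 to 7.48 (0.903). With the thalamus marker score as a covariate the median log2 fold change of the 9 genes was -0.06 in place of -0.38. The part of the choroid plexus and astrocyte differences in the levels of the 9 genes was not tested.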

How the results depend on the processing

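None of the 9 genes passed an adjusted p under 0.05 in any of the 20 alternatives, in which the lowest adjusted p was 0.651, and 165 of their 180 log2 fold changes kept their sign. The 15 that turned were Gnal with the thalamus marker score as a covariate (0.011), 8 genes without mice DF-1037 and DF-1062 (Ppp1r1b 0.16, Adcy5 0.29, Gnal 0.20, Gng7 0.32, Rasgrp2 0.11, Bcl11b 0.089, Foxp2 0.12 and Meis2 0.13) and 6 genes with mouse WT-1063 left out as well (Ppp1r1b 0.060, Adcy5 0.19, Gnal 0.15, Gng7 0.22, Foxp2 0.069 and Meis2 0.022). The median of the 9 genes was 0.06 in the latter fit, -0.67 with limma-trend on log2(FPKM + 0.1) and -0.50 with the cortical marker score. The number of all genes past the adjusted threshold, 20, was 31 with DESeq2, 12 with the thalamus score, 11 without mice DF-1037 and DF-1062 and 8 to 18 with 1 mouse left out, 8 of them without mouse DF-1018 or mouse DF-1059. With 4 mice a group and 2 deletion mice far from the other 2, the SE of the log2 fold changes was 0.24 to 0.57, and differences larger than their SE, such as that of Foxp1 (-0.57, SE 0.42), did not pass. No paired analysis was possible because each mouse number occurs in 1 genotype only.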
